A study of Mus musculus with 6 samples.

Results

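Genes of cholesterol synthesis and sterol transport were compared between mouse embryos cultured in narrow and in wide cavities. The members were 30 genes picked by name for their place in the pathway, with earlier results of these data known. Of these, 28 had an array feature that named only that gene, out of 19938 such genes in all. Acat2 and Nr1h2 had no such feature and were not analysed here. The embryos were of the outbred CD1 stock, with no allele or agent named for either group. They were collected at embryonic day 5.0 and cultured for 8 hours in cavities of 90 µm (narrow, 3 samples) or 180 µm (wide, 3 samples) diameter. Each sample was a pool of 30 whole embryos hybridised to 1 Affymetrix Mouse Gene 1.0 ST array, and the arrays are named narrow 1 to 3 and wide 1 to 3 by the replicate number of their titles. The stated question was how embryos with external mechanical cues differ from those without.

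Animal cells build cholesterol from acetyl-CoA. The mevalonate steps yield isoprenoid units, which are joined to squalene, closed into the ring of lanosterol and trimmed to cholesterol. When sterols in the endoplasmic reticulum are low, the protein Scap carries the transcription factors encoded by Srebf1 and Srebf2 (SREBPs) to the Golgi, where they are cut and freed to switch on the pathway, and Insig proteins hold Scap back when sterols are plentiful. Surplus sterol is sensed by the liver X receptors, which switch on the efflux pumps Abca1 and Abcg1, while Npc1, Npc2 and Stard4 move cholesterol between membranes. Early mouse embryos both make sterol and take it up through the visceral endoderm, the absorptive outer layer that also makes lipoproteins.

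Promoter sequences of the members are shown for 4 genes to set the known control of the pathway beside the values. RefSeq (build GRCm38.p6) gave the 250 bases before the transcription start for 24 of the 30 members, in 33 windows as some genes have several starts. The box CCAAT, read on both strands, was found in windows of 19 of the 24 members and of 37.5% of all RefSeq genes with windows of this length. The box GGGCGG was found for 21 of the 24 members and 35.4% of all RefSeq genes, and for 49.3% of those on the array. Both boxes bind general factors that work beside SREBPs at many promoters. A strict form of the sterol element, TCACNCCAC on either strand, lay in the window of 1 member, Hmgcs1, and of 1.22% of all RefSeq genes, and SREBPs also bind looser forms that were not searched. Motif matches describe letters only. Capitals mark the CCAAT boxes on either strand and, in Hmgcs1, the sterol element. Hmgcs1 (chr13:119690101-119690350, plus strand) is shown for that element, Mvd (chr8:122443423-122443672, minus strand) and Srebf2 (chr15:82147019-82147268, plus strand) for the spread of their signals described further on, and Mvk (chr5:114444019-114444268, plus strand) for its 5 CCAAT boxes.
Hmgcs1: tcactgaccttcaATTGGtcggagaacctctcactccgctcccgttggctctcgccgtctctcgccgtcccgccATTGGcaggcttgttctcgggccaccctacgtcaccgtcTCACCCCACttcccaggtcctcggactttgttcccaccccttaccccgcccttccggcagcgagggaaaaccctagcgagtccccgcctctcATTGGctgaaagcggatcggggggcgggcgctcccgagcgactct
Mvd: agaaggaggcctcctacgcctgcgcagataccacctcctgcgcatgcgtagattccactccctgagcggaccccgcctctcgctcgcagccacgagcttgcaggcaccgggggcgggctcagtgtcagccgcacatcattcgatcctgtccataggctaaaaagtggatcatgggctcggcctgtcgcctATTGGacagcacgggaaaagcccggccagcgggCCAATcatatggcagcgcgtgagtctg
Mvk: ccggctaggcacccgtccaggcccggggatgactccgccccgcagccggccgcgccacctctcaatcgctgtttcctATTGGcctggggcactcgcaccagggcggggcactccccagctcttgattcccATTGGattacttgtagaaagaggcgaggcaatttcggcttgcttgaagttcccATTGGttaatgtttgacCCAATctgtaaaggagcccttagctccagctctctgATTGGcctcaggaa
Srebf2: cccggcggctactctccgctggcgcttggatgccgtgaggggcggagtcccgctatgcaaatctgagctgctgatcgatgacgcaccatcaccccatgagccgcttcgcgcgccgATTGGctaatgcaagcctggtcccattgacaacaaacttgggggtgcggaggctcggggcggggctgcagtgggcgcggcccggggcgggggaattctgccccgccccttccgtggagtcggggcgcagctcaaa

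The deposited values are log2 signals, and array medians lay between 7.62 and 7.67. Probes differ between genes, so levels are not compared from gene to gene. In pools of whole embryos, fewer cells of a type and less RNA per cell cannot be told apart. Percentiles of the markers' mean signals check the labelled tissue only roughly, since they depend on each gene's probes. The 8 epiblast markers lay between the 65.3th and 97.9th percentile of all genes, the 6 of extraembryonic ectoderm between 77.4 and 97.6 and the 12 of visceral endoderm between 68.2 and 99.8. The 5 markers of maternal decidua and stroma lay between 13.5 and 60.1 and the 4 measured blood markers between 17.4 and 58.3. By limma no marker passed after adjustment. Narrow and wide did not overlap for 3 of 6 extraembryonic ectoderm markers, Esrrb and Bmp4, lower in narrow, and Tfap2c, higher (0.093 ± 0.047). The same held for 2 of 12 visceral endoderm markers, Trf, higher in narrow, and Hnf4a, lower (-0.064 ± 0.040). It also held for 1 of 8 epiblast markers, Sox2, lower in narrow (-0.095 ± 0.047). Groups did not overlap for 7.7% of all genes. An unadjusted p under 0.05 was reached by 3.4% of all genes. Among the markers these were Esrrb, with a difference (narrow minus wide) of -0.22 ± 0.045, Bmp4, -0.21 ± 0.077, and Trf, 0.18 ± 0.048. The mean signal of the epiblast list was 11.05 to 11.11 in narrow and 11.12 to 11.15 in wide arrays, that of extraembryonic ectoderm 11.33 to 11.43 and 11.42 to 11.47, and that of visceral endoderm 11.67 to 11.70 and 11.64 to 11.69. The part of tissue makeup in the differences between cavities was not tested.

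No sterol gene differed between cavities beyond the spread of the pools. By limma with Benjamini-Hochberg adjustment over all 19938 genes, 0 of the 28 members passed, as for all genes (0.0%), and the adjusted p of every member was 1.00. None of the 28 reached an unadjusted p under 0.05 either, which 3.4% of all genes did. Narrow and wide arrays overlapped for each of the 28 members, whereas they did not overlap for 7.7% of all genes. Differences of the members (narrow minus wide, log2 scale) ran from -0.079 to 0.052 with a median of 0.0027, 15 positive and 13 negative, and the median of all genes was 0.0011. The median size of a difference, whatever its sign, was 0.022 for the members and 0.035 for all genes. The widest 95% intervals reached -0.26 and 0.28, both those of Mvd, so the fit allows a change of up to 1.21-fold for that gene and less for the other 27.

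**Figure D1:**
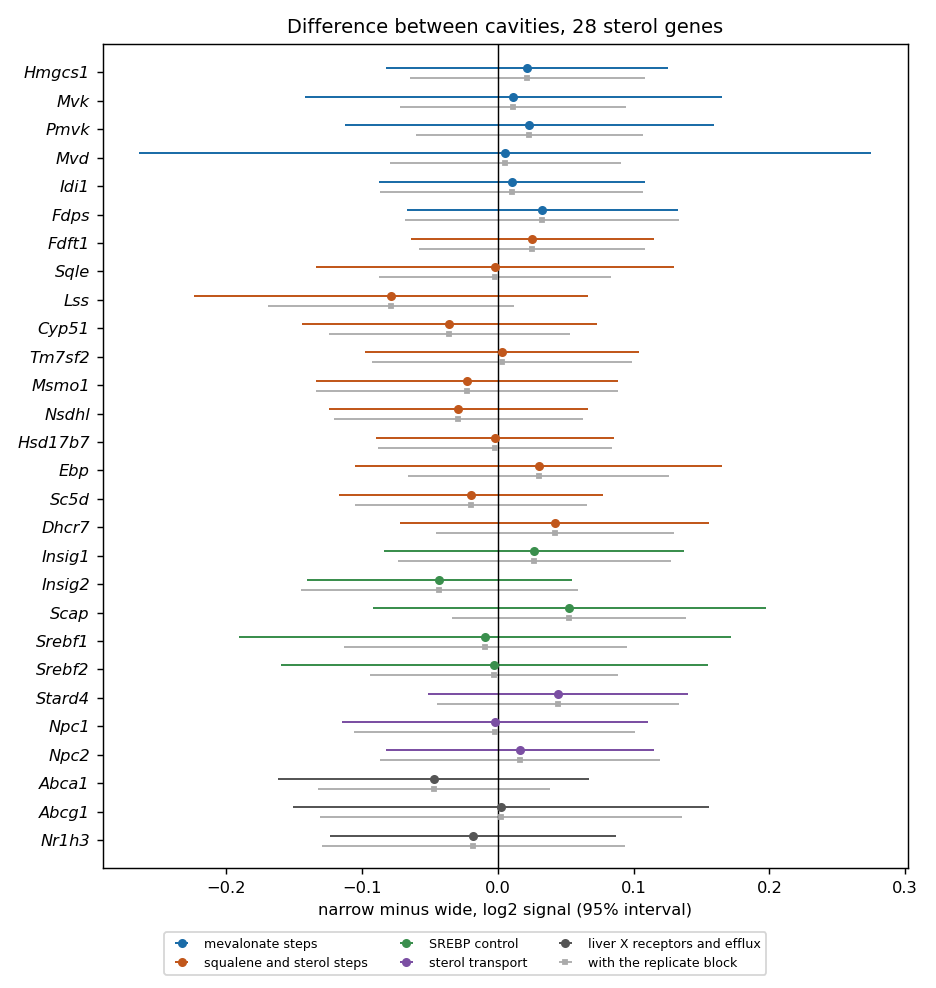
Difference in log2 signal between narrow and wide cavities (horizontal axis) for the 28 measured sterol genes, with 95% intervals of the limma fit on 3 arrays per group. Coloured points are grouped by role and grey squares show the blocked fit, in which the replicate number is a term. Every interval includes 0, and the point estimates lie between -0.079 and 0.052.

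All 6 measured genes of the mevalonate steps had small positive differences, from 0.0054 to 0.033, and none passed. Without wide 1 only Fdps stayed positive, and the other 5 ran from -0.0091 to -0.097. Fdps makes farnesyl diphosphate, the branch point to sterols and other isoprenoids. Its signal was 11.61, 11.64 and 11.60 in narrow 1, 2 and 3 and 11.57, 11.54 and 11.64 in wide 1, 2 and 3. The difference was 0.033 ± 0.043 (SE, limma adjusted p = 1.00), and wide 3 was the highest of the 6 arrays. Hmgcs1, which makes HMG-CoA, differed by 0.022 ± 0.045, Mvk, the mevalonate kinase, by 0.011 ± 0.067 and Pmvk, the kinase after it, by 0.023 ± 0.059. Idi1, which isomerises the 5-carbon isoprenoid unit, differed by 0.010 ± 0.043, with a second feature of the same gene at 0.0071. The difference of Mvd, the decarboxylase that makes that unit, was 0.0054 ± 0.117, the least precise of the 28.

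Of the 11 genes from squalene to cholesterol 4 had positive and 7 negative differences, and none passed. Lss, the cyclase that folds squalene epoxide into lanosterol, had the largest difference of any member. Its signal was 11.39, 11.50 and 11.51 in narrow 1, 2 and 3 and 11.42, 11.60 and 11.61 in wide 1, 2 and 3. The narrow mean of 11.47 ± 0.06 (SD, n = 3) lay below the wide mean of 11.55 ± 0.11, a difference of -0.079 ± 0.063 (SE, limma adjusted p = 1.00). Narrow minus wide was -0.027, -0.106 and -0.104 at numbers 1, 2 and 3, but wide 1 was below narrow 2 and narrow 3, so the groups overlapped. With the replicate number as a block the difference had a 95% interval from -0.170 to 0.012 (limma adjusted p = 0.713). Without wide 1 it was -0.141.

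Cyp51, the demethylase that acts on lanosterol, had signals of 10.82, 10.87 and 10.87 in the narrow and 10.81, 10.93 and 10.92 in the wide arrays, a difference of -0.036 ± 0.047. Nsdhl, which takes part in removing the methyl groups at carbon 4, had 11.85, 11.83 and 11.87 in the narrow and 11.83, 11.90 and 11.91 in the wide arrays, a difference of -0.029 ± 0.042. In both genes wide 2 and wide 3 were the highest arrays and wide 1 was among the lowest. Msmo1, the oxidase of the same methyl groups, differed by -0.023 ± 0.048 and Sc5d, the desaturase before the last step, by -0.020 ± 0.042.

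Dhcr7, which makes cholesterol from 7-dehydrocholesterol, had the largest positive difference of the synthesis enzymes. It read 10.79, 10.88 and 10.92 in the narrow and 10.78, 10.81 and 10.87 in the wide arrays, a difference of 0.042 ± 0.049 (SE, limma adjusted p = 1.00). Ebp, a sterol isomerase, read 10.52, 10.44 and 10.31 in the narrow and 10.43, 10.39 and 10.35 in the wide arrays, so narrow 1 and narrow 3 were the extremes of all 6. Its difference was 0.030 ± 0.059. Fdft1, the squalene synthase, read 12.03, 12.02 and 12.05 in the narrow and 11.986, 11.997 and 12.034 in the wide arrays, a difference of 0.025 ± 0.039, and a second feature of the gene gave 0.049. The squalene epoxidase Sqle (-0.0021 ± 0.057), the reductase Hsd17b7 (-0.0022 ± 0.038) and Tm7sf2, another sterol reductase (0.0030 ± 0.044), lay nearest to 0. Hsd17b7 was also the steadiest member, with all 6 arrays within 0.042 of each other.

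Among the 5 genes of SREBP control, Scap had the largest difference. It read 10.25, 10.43 and 10.40 in the narrow and 10.21, 10.34 and 10.37 in the wide arrays, a difference of 0.052 ± 0.063 (SE, limma adjusted p = 1.00). The narrow array was the higher one at each replicate number, but narrow 1 lay below wide 2 and wide 3. The Insig genes had differences of opposite sign, and neither passed. Insig1, itself a gene that SREBPs switch on, read 11.52, 11.62 and 11.65 in the narrow and 11.56, 11.60 and 11.55 in the wide arrays, a difference of 0.027 ± 0.048. Insig2, which is not driven by SREBPs in the same way, read 9.98, 10.01 and 9.94 in the narrow and 10.01, 9.99 and 10.06 in the wide arrays, a difference of -0.043 ± 0.042. The transcription factor genes Srebf1 (-0.0093 ± 0.079) and Srebf2 (-0.0028 ± 0.068) had nearly equal group means.

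Stard4, a soluble carrier of cholesterol, read 10.68, 10.60 and 10.62 in the narrow and 10.59, 10.57 and 10.61 in the wide arrays. Narrow 1 was the highest array, and wide 3 lay above narrow 2. The difference was 0.044 ± 0.041 (SE, limma adjusted p = 1.00). Npc1 and Npc2, which pass cholesterol out of the lysosome, differed by -0.0025 ± 0.049 and 0.016 ± 0.043. Abca1, which loads cholesterol onto apolipoproteins, read 7.95, 8.01 and 7.91 in the narrow and 8.02, 8.06 and 7.93 in the wide arrays, a difference of -0.047 ± 0.050 (limma adjusted p = 1.00). Narrow minus wide was -0.072, -0.050 and -0.020 at the 3 numbers. Abcg1, a pump that exports sterol to lipoproteins, differed by 0.0025 ± 0.067 and the liver X receptor gene Nr1h3 by -0.018 ± 0.046.

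**Figure D2:**
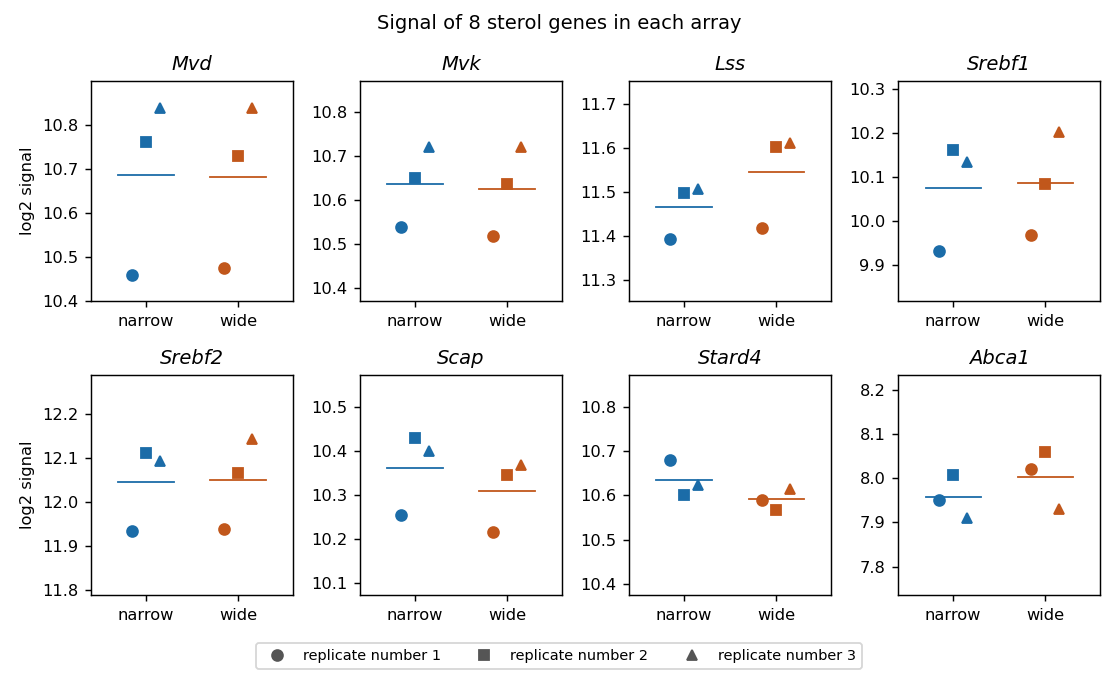
Log2 signal (vertical axis, each panel spanning 0.5 units around its gene) of 8 sterol genes in the 3 narrow and 3 wide arrays, with marker shape for the replicate number and a line at each group mean. Narrow and wide overlap in every panel, and in 6 of the 8, from Mvd to Scap, the arrays numbered 1 of both cavities are the lowest 2. The panels were picked by hand, Mvd, Mvk, Srebf1 and Srebf2 after their values were seen, so this share does not describe the members. Both arrays numbered 1 were lowest for 13 of all 28 members and for 19.9% of all genes.

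For most members, as for most genes of the array, the difference between replicate numbers was larger than that between cavities. For 13 of the 28 members both arrays numbered 1 lay below the other 4 arrays, which was so for 19.9% of all genes, and for 0 members both lay above them, against 12.2% of all genes. The signal was lower in the arrays numbered 1 for 25 of the 28 members and for 61.4% of all genes, with a median difference (number 1 minus numbers 2 and 3) of -0.059 for the members and -0.024 for all genes. With each array centred on its median 9 members lay below, against 13.6% of all genes, and 1, Ebp, lay above, against 17.5%. The signal was then lower for 18 of 28 members and 49.8% of all genes. Without centring, the difference between numbers was larger than that between cavities for 22 of the 28 members and for 66.4% of all genes. No label tells what the numbers mean, the comparison was made after the values were seen, and it was not tested.

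Mvd stood out among the members. It read 10.46 in narrow 1 and 10.48 in wide 1, 10.76 and 10.73 in the arrays numbered 2 and 10.84 in both arrays numbered 3. The narrow array thus differed from the wide one of its number by -0.016, 0.033 and -0.00050, while the difference of the arrays numbered 1 from the others was -0.324, or 1.25-fold lower. Srebf1 read 9.93 in narrow 1 and 9.97 in wide 1, and between 10.08 and 10.20 in the other 4, a difference of -0.194. For Srebf2 the arrays numbered 1 read 11.94 in both cavities and the other 4 between 12.07 and 12.14, a difference of -0.166. Mvk read 10.54 in narrow 1 and 10.52 in wide 1 against 10.64 to 10.72 in the others. These 4 genes were chosen after their values were seen. With each array centred on its median the differences were -0.300 for Mvd, -0.170 for Srebf1, -0.142 for Srebf2 and -0.129 for Mvk. Centring shifts all genes alike and by less than these differences, so it could not reverse their sign. The sign also stayed the same after quantile normalization, which for genes picked for large differences is no separate check.

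By role, both arrays numbered 1 were lowest for 4 of 6 mevalonate genes (Hmgcs1, Mvk, Pmvk and Mvd), 5 of 11 genes from squalene to cholesterol (Sqle, Lss, Cyp51, Sc5d and Dhcr7), 3 of 5 control genes (Scap, Srebf1 and Srebf2), 1 of 3 transport genes (Npc1) and 0 of 3 liver X receptor and efflux genes. The share of all genes was 19.9%. With median centring Hmgcs1, Sc5d, Dhcr7 and Npc1 left these counts, and the share of all genes was 13.6%. The median difference between numbers was -0.151 for the control genes, -0.093 for the mevalonate genes and -0.050 for the genes from squalene to cholesterol, and with median centring -0.127, -0.069 and -0.025. It was -0.0068 for the transport genes and -0.019 for the liver X receptor and efflux genes, but 0.017 and 0.0047 with median centring, so these 2 groups have no settled direction. Ebp had the largest opposite difference, with arrays numbered 1 higher by 0.103. For Insig1 the difference between numbers was -0.12 within the narrow and -0.02 within the wide arrays.

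**Figure D3:**
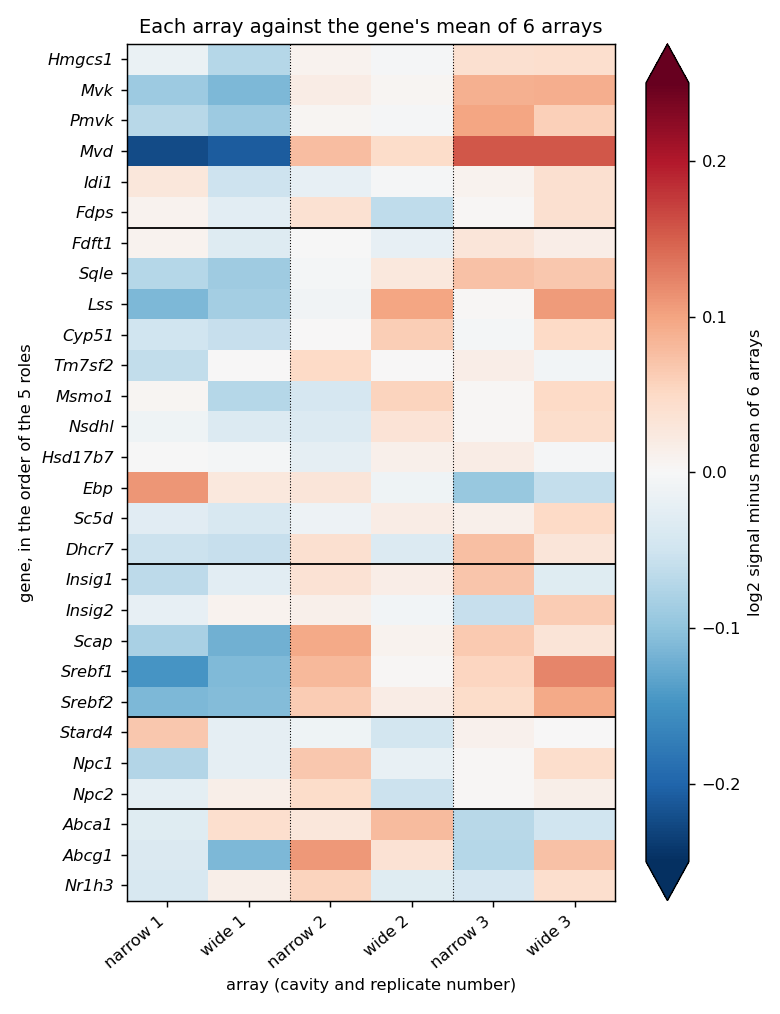
Log2 signal of each array minus the gene's mean over the 6 arrays (colour) for the 28 sterol genes (rows, in the order of the 5 roles, separated by lines), with arrays of the same number side by side. Blue cells, below the mean, fill the columns of narrow 1 and wide 1 for Mvk, Pmvk, Mvd, Lss, Scap, Srebf1 and Srebf2, and for Ebp both columns are above the mean.

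Markers of the tissues in the pools were read for the same pattern. Both arrays numbered 1 lay below the other 4 for 0 of 8 epiblast, 0 of 6 extraembryonic ectoderm and 3 of 12 visceral endoderm markers, and above them for 2, 0 and 0. Over all genes 19.9% lay below and 12.2% above. The median differences of these lists between numbers were 0.027, -0.0046 and -0.016, and with median centring 0.051, 0.020 and 0.0080, so only the epiblast list kept its sign. Both arrays numbered 1 lay below the other 4 for 2 of the 4 measured blood markers, 1 of 5 markers of decidua and stroma, 0 of 4 parietal endoderm markers and Hand1, the 1 trophoblast giant cell marker measured. They lay above for 1 blood marker, Cd68, and 1 marker of decidua and stroma, Pgr. With median centring the counts below were 1 of 4 for blood and 0 of 5 for decidua and stroma, against 13.6% of all genes. Their part in the difference between numbers was not tested.

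**Figure D4:**
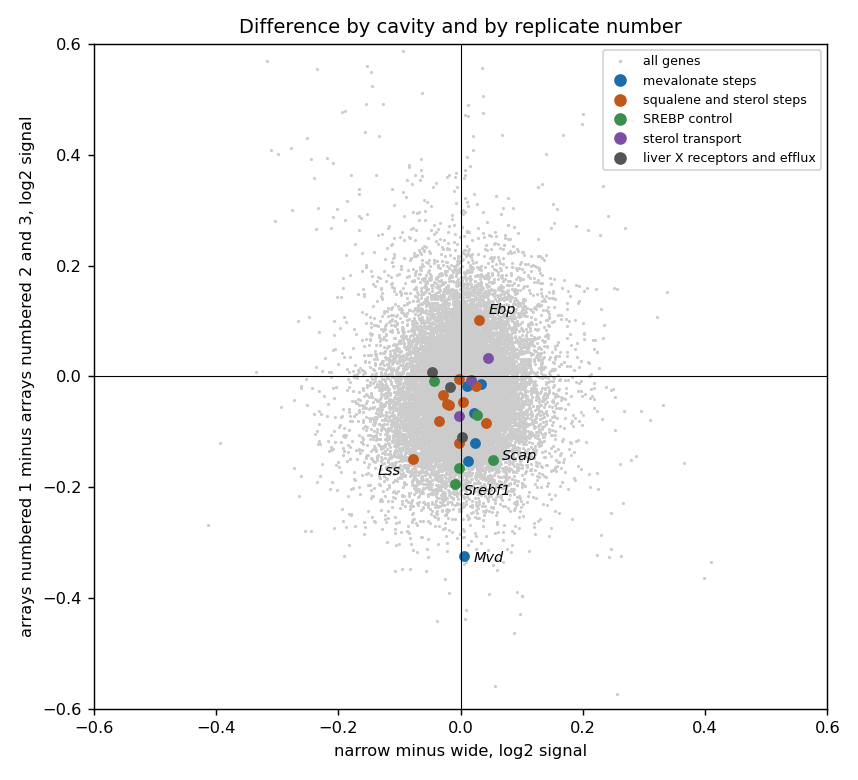
Difference between cavities (horizontal axis, narrow minus wide) against difference between replicate numbers (vertical axis, arrays numbered 1 minus those numbered 2 and 3), both in log2 signal, for all genes (grey, 13 lie outside the frame) and the 28 sterol genes by role. The sterol genes form a column around 0 on the horizontal axis and reach down to -0.324 (Mvd) and up to 0.103 (Ebp) on the vertical one.

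Taking the number into account narrowed the comparison between cavities and called nothing. Over all genes, deviations from the group mean correlated at 0.516, 0.176 and 0.272 between same-numbered arrays. Narrow 2 correlated with wide 3 at 0.178, slightly above its 0.176 with wide 2. Same-numbered arrays were treated as pairs on the basis of these same data, so the pairing is an assumption. With the number as a block 0 of 28 members had an unadjusted p under 0.05, against 7.25% of all genes, and the smallest adjusted p of a member was 0.713. The standard error of Mvd fell from 0.117 to 0.035 and the median of the members from 0.048 to 0.037. The members' 95% intervals then lay between -0.170 and 0.139, which under that pairing allows a change of up to 1.13-fold. In the 4 arrays numbered 2 and 3 alone 0 of 28 members passed, with a median difference of 0.0038. The narrow array lay on the same side of its wide partner in all 3 pairs for 7 members of 28, against 28.7% of all genes. These were Pmvk, Fdft1, Dhcr7, Scap and Stard4, higher in narrow, and Lss and Abca1, lower in narrow.

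Neighbouring pathways gave 0 calls after adjustment, with or without the block. Of 17 measured genes among 24 others of sterol handling 0 passed after adjustment and 0 at an unadjusted p under 0.05. Those with the smallest p were Nceh1, which frees cholesterol from its esters (0.085 ± 0.042), and Pgrmc1, a partner of sterol-modifying P450 enzymes (0.097 ± 0.049), with all narrow arrays above all wide arrays in both. Groups that did not overlap, in either direction, made up 7.7% of all genes. With the number as a block 2 of the 17 had an unadjusted p under 0.05, Pgrmc1 and the oxysterol hydroxylase Cyp7b1 (0.115 ± 0.087 without the block), against 7.25% of all genes, and neither passed after adjustment. Of 14 fatty acid genes driven by SREBPs 0 passed and the median difference was -1.8e-05. Pnpla3, a lipid droplet protein, differed by -0.096 ± 0.048, with all narrow arrays below all wide arrays. It had an unadjusted p under 0.05 in the blocked fit only. Me1, which supplies NADPH, differed by 0.084 ± 0.049. Of 12 measured genes among 14 of the isoprenoid branch 0 passed, with Rce1, a protease of prenylated proteins, at 0.071 ± 0.045 and Coq2, which acts in ubiquinone synthesis, at 0.088 ± 0.062, the latter with an unadjusted p under 0.05 in the blocked fit only. Of 9 measured genes among 10 linked to liver X receptors 0 passed, with the sterol pump Abcg8 at -0.183 ± 0.088 and the coactivator Ncoa2 at 0.074 ± 0.050. In this list 7 differences were positive and 2 negative, and Abcg5 differed by 0.265 ± 0.200, opposite in sign to Abcg8. Abcg8 and Cyp7b1 were dim, with mean signals at the 21.7th and 25.8th percentile of all genes.

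The neighbouring lists were also read by number. Both arrays numbered 1 lay below the other 4 for 7 of the 14 fatty acid genes, against 19.9% of all genes. These were Acss2, Fads1, Acaca, Fasn, Fads2, Acly and Gpam. For Mid1ip1 both lay above, which was so for 12.2% of all genes. With median centring 6 of the 14 lay below, without Gpam, and 3 above, against 13.6% and 17.5% of all genes. Acss2, which makes acetyl-CoA from acetate, read 9.38 in narrow 1 and 9.39 in wide 1, and between 9.51 and 9.68 in the other 4, a difference of -0.226. Acaca, the first enzyme of fatty acid synthesis, had a difference of -0.190 and the desaturase Fads1 one of -0.192. These genes were named after their values were seen. Of the 17 other sterol genes 5 lay below and 3 above, with a median difference of 0.016. With median centring 2 of them lay below and 4 above, with a median of 0.040. Of the 9 genes linked to liver X receptors 3 lay below and 1 above, with a median of -0.059. With median centring 2 of the 9 lay below and 2 above, with a median of -0.035. In the isoprenoid branch 1 of 12 lay below and 4 above, with a median difference of 0.044, opposite in sign to the median of the mevalonate genes under each scaling tried. With median centring 0 lay below and 6 above, where 17.5% of all genes lay above. Whether these lists differ from one another was not tested.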

How the data were processed

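The deposited file holds log2 signals, 1 per array feature and sample. The log2 scale was read from the deposited values, which lie between 4.33 and 14.31. How the authors corrected background, summarized probes and normalized is not stated in the labels, although array medians were nearly equal. The values were used unchanged. Without a background measure, a dim gene cannot be separated from one not expressed. Precision is limited by having 6 arrays.

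Features were named through the platform annotation. Of 28853, 21789 named 1 gene, and for genes with several the one with the highest mean was used. Differences were fitted across all 19938 genes with limma 3.58.1 in R 4.3.3 (lmFit and eBayes, two-sided, no covariate), with Benjamini-Hochberg adjustment and a threshold of 0.05. The fit was tested on simulated data with independent arrays and added changes far larger than any member difference. That test does not show how well differences as small as those of the members would be found. Same-numbered arrays, whose deviations correlated above 0.1 in all 3 pairs, were also fitted with the number as a block. The meaning of the numbers is not labelled, and narrow 2 correlated with wide 3 at 0.178, above its 0.176 with wide 2. The design text calls the samples biological replicates. The members, lists and tests were chosen with earlier results of these data known. Signals in every array are given for the 12 members with the smallest p and for others named as chosen later, and 2 genes with the smallest p are named from each other list. Promoters came from RefSeq.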

Additional observations from a re-analysis of the deposited data

How the results depend on the processing

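No member passed after adjustment under any alternative run: a fit with the replicate block, the mean over features, genes above the 50th percentile of signal (26 members), quantile normalization, median centring, an intensity trend with robust settings, all 28853 features, the 4 arrays numbered 2 and 3, or each array left out. The smallest adjusted p of a member over these fits was 0.713, with the replicate block, where the median difference stayed at 0.0027 by design. At an unadjusted p under 0.05 the count was 0 under each, and 0 to 1 with single arrays left out in turn, the 1 being Lss without wide 1 (-0.141). The median difference over members ran from -0.016 to 0.030 with single arrays left out in turn, the lowest without wide 1 and the highest without narrow 1. Of 362 member differences 321 kept their sign and 41 changed it, none of them called, and 11 members kept their sign throughout. The 321 include differences that could not change, namely all those under the block, the intensity trend and the filter on signal. The mean over features could alter only Idi1 and Fdft1. The count of 13 members lowest in both arrays numbered 1 was 14 with quantile normalization, 9 with median centring and 13 with the mean over features, and the median of -0.059 became -0.069, -0.035 and -0.059. These last alternatives were chosen after seeing the data. Array background was not measured and limits dim members such as Nr1h3.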
